A study of Mus musculus with 8 samples.

Results

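The ribosome biogenesis genes examined here are 43 named genes whose products transcribe the ribosomal RNA genes, modify and cut the precursor RNA or assemble the small and the large ribosomal subunit. Each gene was represented by the brightest Affymetrix probe set that the platform annotation assigns to that gene symbol alone. For 42 of the 43 genes there was such a probe set, and all 42 passed the filter on low values, among 14423 genes tested out of 18193 with a probe set of that kind. Of the 42, 41 lay above the filter limit of 3.60 (log2 signal) on all 8 arrays, and Rrp12 did so on fewer. Mrto4, a factor of large subunit stalk assembly, was not analysed here because its probe set carries several symbols. The arrays measured liver RNA of male C57BL/6 mice aged 7 to 10 weeks, either wild type or Tob1 null, taken without surgery (0 h) or 24 h after 2/3 hepatectomy under ketamine and xylazine. The median and left lateral lobes were tied off and removed, and no group was sham-operated, so the operation and the loss of tissue cannot be told apart. There were 2 arrays for each of the 4 groups, and each array carried RNA pooled from 3 mice that were on no other array, so that pool 1 of a group is its array 1. Errors therefore describe the spread between pools, and with 2 pools a group they are known only roughly.

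Ribosomes are built mainly in the nucleolus, where RNA polymerase I makes a long precursor that holds most of the ribosomal RNAs. Small nucleolar ribonucleoproteins (snoRNPs) modify this RNA at many positions, those of the box C/D class by methylation and those of the box H/ACA class by pseudouridylation. Separate sets of assembly factors then fold and cut the RNA into the precursors of the small and of the large subunit. Growing and dividing cells need new ribosomes, and the nucleolus of the hepatocyte is known to enlarge after partial hepatectomy. Tob1 is an antiproliferative protein that binds the CCR4-NOT deadenylase.

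The targeted gene did not check the labels. The brighter Tob1 probe set read 10.46 and 10.53 (log2 signal) in wild type and 11.10 and 11.03 in the arrays labelled Tob1 null at 0 h. At 24 h it read 9.87 and 10.20 against 10.66 and 10.58, while a dimmer probe set read 4.02 to 5.19 over the wild type and 2.65 to 4.06 over the null arrays. Whether either lies in the deleted part is not known here, so the second genotype is called null-labelled, and the labels alone give the sign of each genotype difference. Liver identity was plain from Alb, Ttr and Apoa1, whose means over the arrays were 13.53, 13.49 and 13.79. Pools of one group correlated with r between 0.949 and 0.960 across probe sets, which are not independent replicates. Within the 24 h groups the ribosome biogenesis genes differed between pools: 38 of the 42 read higher in wild type pool 1 than in pool 2, and 38 read higher in null-labelled pool 2 than in pool 1. Over all genes tested those shares were 48.5% and 52.2%. Counts without either pool are given with the results.

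Promoter windows are shown for 5 members that differ in the response described below. Nhp2 and Nop10 belong to the same snoRNP, and Nhp2 rose while Nop10 did not pass the test. Ebna1bp2 and Nip7 both serve the large subunit, and Ebna1bp2 rose while Nip7 fell. Nop2 was the member called in wild type that holds an E-box. The sequences are from RefSeq on GRCm38.p6, run from 250 bases before to 30 bases after the annotated start, and all lie on the plus strand: Nhp2 at chr11:51619523-51619802, Nop10 at chr2:112261676-112261955, Ebna1bp2 at chr4:118620549-118620828, Nip7 at chr8:107056627-107056906 and Nop2 at chr6:125131633-125131912. Capitals mark CACGTG (the E-box, which Myc and its relatives bind), CGGAAG (the core of ETS factor sites) and TATAAA (the TATA box), searched on both strands, so CGGAAG also appears as CTTCCG.
Nhp2: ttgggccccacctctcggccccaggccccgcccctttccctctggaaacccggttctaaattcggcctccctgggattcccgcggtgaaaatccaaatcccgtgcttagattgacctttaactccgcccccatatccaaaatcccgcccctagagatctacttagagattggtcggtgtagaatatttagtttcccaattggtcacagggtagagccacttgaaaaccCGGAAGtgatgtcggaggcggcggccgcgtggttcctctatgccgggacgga
Nop10: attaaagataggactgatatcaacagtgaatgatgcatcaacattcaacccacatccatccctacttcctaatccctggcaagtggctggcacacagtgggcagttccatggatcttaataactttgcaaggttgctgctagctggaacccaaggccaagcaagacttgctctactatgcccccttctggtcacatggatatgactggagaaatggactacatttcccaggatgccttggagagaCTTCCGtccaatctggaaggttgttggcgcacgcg
Ebna1bp2: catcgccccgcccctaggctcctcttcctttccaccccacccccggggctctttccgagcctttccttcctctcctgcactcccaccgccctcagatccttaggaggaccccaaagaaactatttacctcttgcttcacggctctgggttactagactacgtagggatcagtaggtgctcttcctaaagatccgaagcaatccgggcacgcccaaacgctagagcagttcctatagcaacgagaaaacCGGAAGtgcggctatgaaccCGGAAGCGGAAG
Nip7: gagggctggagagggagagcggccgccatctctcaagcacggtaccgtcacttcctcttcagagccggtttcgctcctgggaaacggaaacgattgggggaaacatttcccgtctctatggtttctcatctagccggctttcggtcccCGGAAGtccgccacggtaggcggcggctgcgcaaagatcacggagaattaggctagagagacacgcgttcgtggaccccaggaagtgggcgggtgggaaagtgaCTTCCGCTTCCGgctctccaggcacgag
Nop2: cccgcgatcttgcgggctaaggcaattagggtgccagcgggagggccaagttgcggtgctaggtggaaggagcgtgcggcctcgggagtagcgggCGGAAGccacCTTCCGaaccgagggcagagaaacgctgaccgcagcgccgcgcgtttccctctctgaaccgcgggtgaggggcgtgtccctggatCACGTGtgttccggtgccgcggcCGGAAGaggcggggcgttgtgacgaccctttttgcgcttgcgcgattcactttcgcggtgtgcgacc

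CGGAAG stood close to the start in rising and other genes of this set, 22 bases upstream in Nhp2 and 5 bases upstream in Nop10. In Ebna1bp2 it began 2 bases upstream and again 19 and 25 bases into the gene. For Nop2, which rose, the sites began further off, 155, 145 and 37 bases upstream. In Nip7 it began 102 bases upstream and again 3 and 9 bases into the gene. The E-box of Nop2 began 60 bases upstream of the start. Windows from 250 bases before to 50 bases after a start were at hand for 37 of the 43 genes (45 windows, since some genes have several starts). CGGAAG was present in 19 of these 45 windows, 42.2%, against 26.7% of the windows of all genes tested and 16.9% of all windows. CACGTG was present in 5 (11.1%, against 9.25% and 7.15%), in Imp4, Nop2, Pes1, Tsr1 and Wdr43, and TATAAA in 2 (4.44%, against 8.80% and 13.6%). The median GC content was 58.3% in the member windows, 59.3% in those of genes tested and 52.7% in all windows. These are matches of letters only.

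Most ribosome biogenesis genes read higher 24 h after hepatectomy in both genotypes. In whole liver RNA, fewer cells of a type and less RNA per cell cannot be told apart. With the response averaged over the genotypes (4 arrays against 4), 24 of the 42 rose, 1 fell and 17 did not pass at an adjusted p under 0.05, that is, 57.1% rose where 13.8% of all genes tested did. The median log2 difference was 0.50 over the members and -0.04 over all genes, and 37 of the 42 were above 0 (88.1%, against 46.7%). Of all genes 15.1% fell. Among the genes that rose, 5 did so at least 2-fold: Rrp12, Nop58, Gar1, Nhp2 and Nop56. In wild type 39 of the 42 were above 0 (92.9%, against 47.5% of all genes) and 8 rose (19.0%, against 4.18%), with a median of 0.61. None fell there, where 5.10% of all genes did, and 26 had an unadjusted p under 0.05 (61.9%, against 29.9%). In the null-labelled arrays 38 were above 0 (90.5%, against 47.4%) and 7 rose (16.7%, against 7.46%), with a median of 0.49. Here too none fell, against 7.27%, and 21 had an unadjusted p under 0.05 (50.0%, against 34.0%). The 5 genes that rose in each of the responses were Ncl, Nhp2, Pa2g4, Bysl and Ebna1bp2, where 2.77% of all genes rose in both. Nop58, Nop2 and Rrs1 rose in wild type and Tcof1 and Rrp12 in the null-labelled arrays, without the difference between the responses passing for any of them. The 24 h arrays lay wholly above the 0 h arrays in 33 members in wild type (29.4% of all genes tested did so) and in 33 in the null-labelled arrays (29.7%), and in 29 members in both (18.7%).

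The call of single genes rested on few arrays. Averaged over the genotypes, 25 members passed in either direction, and 14 without 24 h wild type pool 1. The number was 14 without 24 h null-labelled pool 2, 10 without 0 h wild type pool 1, 13 without 0 h null-labelled pool 1 and 11 without 0 h null-labelled pool 2. Calls over all genes fell too, from 28.8% in either direction to 17.6%, 22.5%, 15.3%, 14.8% and 16.4% in the same order. The median stayed between 0.44 and 0.60 when each array was left out in turn. In wild type no member passed when any 1 of the 0 h pools of either genotype was left out, or 24 h wild type pool 1, without which the median was 0.40. Few genes of any kind passed there: 7 and 3 of 14423 without wild type pool 1 and 2 of 0 h, 21 without 24 h wild type pool 1 and 312 without either 0 h null-labelled pool, against 1338 with all arrays. In the null-labelled response no member passed when any 1 of the 0 h pools was left out, or 24 h null-labelled pool 2, and 1 passed without 24 h null-labelled pool 1. Over all genes the calls went from 14.7% to 5.84% without either 0 h wild type pool, to 0.229% and 0.18% without 0 h null-labelled pool 1 and 2, and to 8.55% and 3.27% without 24 h null-labelled pool 1 and 2. Nop58, Gar1, Nhp2, Tcof1, Ncl, Npm1, Bysl and Rrp12 passed in the averaged response in all 8 fits that left out an array and under all 9 other settings tried. Pa2g4 and Ebna1bp2 passed in the 8 fits and under 8 of the 9 other settings.

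**Figure D1:**
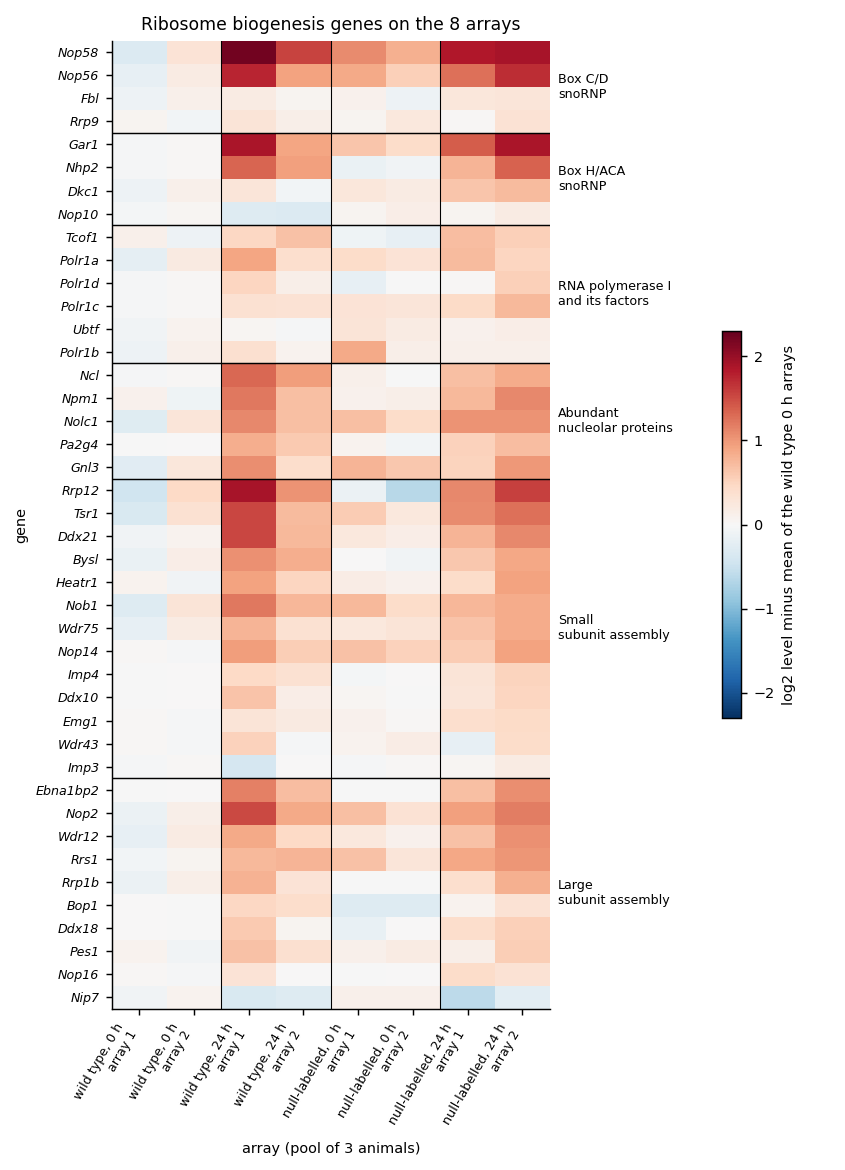
Heat map of the 42 ribosome biogenesis genes (rows, by role) on the 8 arrays (columns); colour is the log2 level minus the mean of the wild type 0 h arrays of that gene. The 24 h columns are red in most rows, with Nop10, Imp3 and Nip7 as blue or pale rows in wild type, and in the 24 h groups wild type pool 1 and null-labelled pool 2 are each the redder of their pair, as counted in the text (38 of 42 genes in each).

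Among the box C/D proteins, which form the methylating snoRNPs, the scaffold proteins Nop58 and Nop56 rose and the methyltransferase did not pass. Nop58 read 6.02 and 6.64 in wild type at 0 h and 8.55 and 7.88 at 24 h, and 7.42 and 7.14 in the null-labelled arrays at 0 h and 8.17 and 8.22 at 24 h. No 24 h array overlapped a 0 h array, and the wild type 0 h pools were the lowest of all. Its log2 difference was 1.88 ± 0.30 (SE) in wild type (adjusted p = 0.0229), 0.91 ± 0.30 in the null-labelled arrays (adjusted p = 0.0879) and 1.40 ± 0.21 averaged (2.64-fold, adjusted p = 0.00755). Its close relative Nop56 read 6.75 and 7.14, then 8.70 and 7.87 in wild type, and 7.82 and 7.49, then 8.22 and 8.65 in the null-labelled arrays, an averaged difference of 1.06 ± 0.23 (adjusted p = 0.0204). The call of Nop56 held in 4 of the 8 fits that left out an array. Fbl, fibrillarin, the methyltransferase of these particles, read between 8.52 and 8.91 on all 8 arrays, an averaged difference of 0.20 ± 0.10. Rrp9, which belongs to the snoRNP that starts processing of the small subunit RNA, read between 6.44 and 6.82, a difference of 0.12 ± 0.11. Differences between these genes were not tested.

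The box H/ACA proteins, the core of the pseudouridylating snoRNPs and of telomerase RNA particles, included 2 of 4 that rose in the averaged response. Nhp2, an RNA-binding core protein, read 8.38 and 8.44 at 0 h and 9.75 and 9.35 at 24 h in wild type, and 8.25 and 8.33 then 9.20 and 9.77 in the null-labelled arrays. It rose by 1.14 ± 0.23 in wild type (adjusted p = 0.0373), by 1.19 ± 0.23 in the null-labelled arrays (adjusted p = 0.0276) and by 1.17 ± 0.16 averaged (adjusted p = 0.00624). Gar1, which helps the enzyme to bind and release its substrate, read 6.09 and 6.15 then 7.99 and 7.03 in wild type, and 6.75 and 6.54 then 7.51 and 7.99 in the null-labelled arrays. The averaged rise of Gar1 was 1.25 ± 0.24 (2.38-fold, adjusted p = 0.0140), the widest gap between pools of any member being its own at 24 h in wild type (SD 0.68, n = 2). Dkc1, dyskerin, the pseudouridine synthase, read 6.96 and 7.20 then 7.36 and 7.01 in wild type and 7.34 and 7.26 then 7.71 and 7.80 in the null-labelled arrays. The null-labelled 24 h arrays were the highest for Dkc1, and wild type overlapped between the times. Nop10, the smallest core protein, read 10.43 and 10.51 then 10.17 and 10.15 in wild type and 10.54 and 10.63 then 10.54 and 10.65 in the null-labelled arrays. Nop10 was thus lower at 24 h in wild type with no overlap, by -0.31 ± 0.12, and at 0.01 ± 0.12 in the null-labelled arrays, and the averaged differences of Dkc1 (0.28 ± 0.12) and Nop10 (-0.15 ± 0.08) did not pass.

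**Figure D2:**
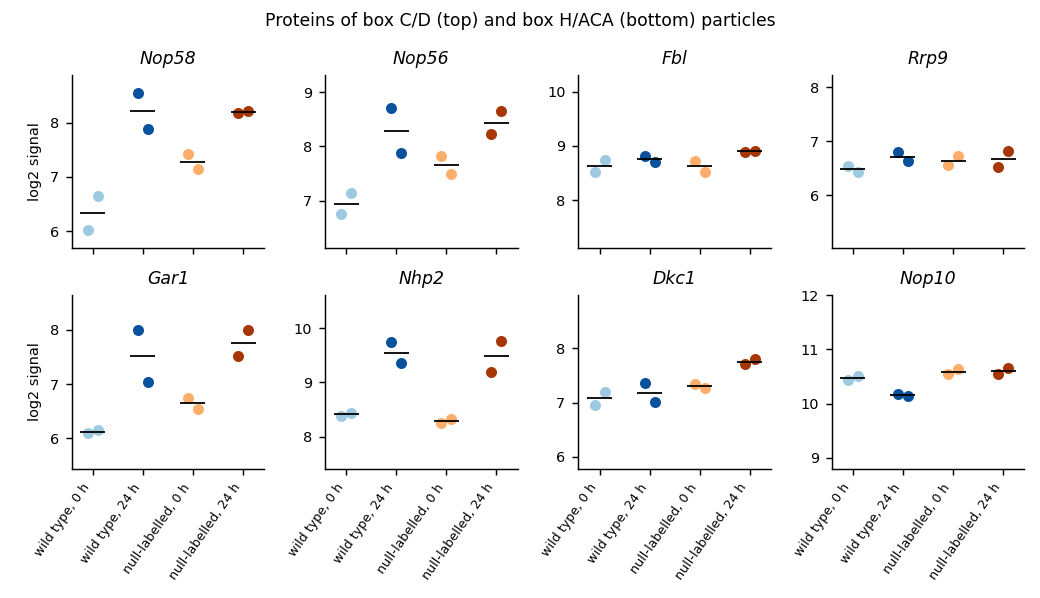
Log2 signal (vertical axis, the same span in each panel) of the box C/D genes (top) and the box H/ACA genes (bottom) on each array; points are arrays, each a pool of 3 animals, and bars are means of 2 arrays. Nop58, Nop56, Gar1 and Nhp2 have all 24 h arrays above the 0 h arrays of their genotype, whereas Fbl stays between 8.52 and 8.91 and Nop10 between 10.15 and 10.65.

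Of the abundant nucleolar proteins, 4 of 5 rose in the averaged response. Ncl, nucleolin, which binds nascent precursor RNA, read 9.12 and 9.19 at 0 h and 10.48 and 10.12 at 24 h in wild type, and 9.28 and 9.14 then 9.84 and 10.00 in the null-labelled arrays. Ncl rose in each genotype, by 1.14 ± 0.16 (adjusted p = 0.0203) and by 0.70 ± 0.16 (adjusted p = 0.0400), and both wild type 24 h arrays lay above both null-labelled ones. Npm1, nucleophosmin, a chaperone of subunit assembly, read 9.80 and 9.62 then 10.93 and 10.40 in wild type and 9.80 and 9.85 then 10.45 and 10.82 in the null-labelled arrays, a rise of 0.88 ± 0.16 averaged (adjusted p = 0.0120). The levels of Npm1 at 0 h lay between 9.62 and 9.85 and none overlapped 24 h. Pa2g4, a growth-regulated protein that binds precursor particles, read 8.93 and 8.96 then 9.78 and 9.55 in wild type and 9.02 and 8.89 then 9.47 and 9.65 in the null-labelled arrays, rises of 0.72 ± 0.14 (adjusted p = 0.0362) and 0.61 ± 0.14 (adjusted p = 0.0418). Of its dimmer probe sets 3 stood below 0 in the averaged response, and the mean over all its probe sets gave -0.048 in the null-labelled response. Nolc1, a chaperone that gathers snoRNPs in the nucleolus, read 6.14 and 6.70 then 7.53 and 7.11 in wild type and 7.11 and 6.84 then 7.46 and 7.46 in the null-labelled arrays, an averaged rise of 0.69 ± 0.17 (adjusted p = 0.0298) that held in 2 of the 8 fits without an array. Gnl3, nucleostemin, a nucleolar GTPase, had averaged 0.39 ± 0.21 and did not pass. At 0 h the null-labelled arrays of Gnl3 (8.88 and 8.72) lay above both wild type arrays (7.84 and 8.35).

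The RNA polymerase I genes had the lowest median of the role groups in the averaged response, 0.33, and 1 of 6 rose. That gene was Tcof1, treacle, which joins transcription of the ribosomal RNA genes to modification of the RNA. Tcof1 read 6.23 and 6.01 then 6.60 and 6.79 in wild type and 6.03 and 5.94 then 6.83 and 6.67 in the null-labelled arrays, with differences of 0.57 ± 0.14 (adjusted p = 0.0610), 0.77 ± 0.14 (adjusted p = 0.0266) and 0.67 ± 0.10 averaged (adjusted p = 0.00790). All its 24 h arrays lay above all 0 h arrays. Polr1c, a subunit shared with RNA polymerase III, had the next smallest p value, at 7.37 and 7.44 then 7.75 and 7.74 in wild type and 7.72 and 7.68 then 7.84 and 8.15 in the null-labelled arrays, 0.31 ± 0.10 averaged (adjusted p = 0.0625). A second, dimmer Polr1c probe set stood at 0.52 ± 0.10 and passed in a fit over all probe sets (adjusted p = 0.0172). Polr1a, the largest catalytic subunit, stood at 0.44 ± 0.16, Polr1d, the other shared subunit, at 0.35 ± 0.16, and Polr1b, the second largest subunit, at -0.08 ± 0.19. Ubtf, the architectural factor of the ribosomal RNA genes, read between 7.21 and 7.58 on all arrays, a difference of -0.06 ± 0.09. Polr1b had the largest gap between null-labelled pools at 0 h, with 7.73 and 6.99.

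Of the 13 genes of small subunit assembly, 9 rose in the averaged response and none fell. Rrp12, which takes part in maturation and export of precursor subunits, had the highest averaged difference of all members, 1.59 ± 0.30 (3.02-fold, adjusted p = 0.0137). Rrp12 read 3.57 and 4.47 then 5.91 and 5.05 in wild type and 3.88 and 3.39 then 5.13 and 5.60 in the null-labelled arrays, so that some of its 0 h values lay under the filter limit, where a fold is imprecise. Bysl, bystin, needed for late steps of the small subunit, read 6.69 and 7.00 then 7.89 and 7.68 in wild type and 6.86 and 6.77 then 7.47 and 7.74 in the null-labelled arrays. It rose in each genotype, by 0.94 ± 0.17 (adjusted p = 0.0299) and 0.79 ± 0.17 (adjusted p = 0.0351). Ddx21, an RNA helicase of nucleolar transcription and processing, read 7.44 and 7.61 then 9.07 and 8.27 in wild type and 7.77 and 7.67 then 8.30 and 8.63 in the null-labelled arrays, and Tsr1, a factor of late small subunit precursors, 6.78 and 7.47 then 8.67 and 7.85, and 7.70 and 7.36 then 8.21 and 8.39. Both rose in the averaged response, Ddx21 by 0.94 ± 0.20 (adjusted p = 0.0181) and Tsr1 by 0.95 ± 0.24 (adjusted p = 0.0335), calls that held in 3 and 2 of the 8 fits without an array.

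Heatr1, Wdr75, Imp4, Nop14 and Emg1, which act early on the small subunit precursor, rose in the averaged response, and Wdr43 and Imp3 did not pass. Heatr1 read 7.45 and 7.29 then 8.29 and 7.87 in wild type and 7.54 and 7.47 then 7.80 and 8.29 in the null-labelled arrays (averaged 0.62 ± 0.16, adjusted p = 0.0315). Wdr75 read 7.06 and 7.44 then 8.04 and 7.60, and 7.49 and 7.54 then 7.90 and 8.11 (0.53 ± 0.15, adjusted p = 0.0422). Their 24 h arrays lay above the 0 h arrays in each genotype, and their calls held in 2 and 1 of the 8 fits. Wdr43, of the same group of proteins, overlapped between the times in both genotypes (0.12 ± 0.18). Imp4 read 7.35 and 7.38 then 7.83 and 7.71 in wild type and 7.32 and 7.37 then 7.66 and 7.87 in the null-labelled arrays (0.41 ± 0.09, adjusted p = 0.0215), while its partner Imp3 stood at -0.03 ± 0.11, between 8.17 and 8.74 on all arrays. Emg1, a methyltransferase of the small subunit RNA, read 9.14 and 9.07 then 9.41 and 9.32, and 9.20 and 9.13 then 9.50 and 9.55 (0.31 ± 0.08, adjusted p = 0.0349), a small difference between closely agreeing pools. Nop14, an early assembly factor, read 5.78 and 5.72 then 6.71 and 6.32 in wild type and 6.42 and 6.28 then 6.34 and 6.67 in the null-labelled arrays (0.46 ± 0.13, adjusted p = 0.0463), and its null-labelled arrays overlapped between the times. Imp4 held its call in 3 of the 8 fits without an array, Nop14 in 2 and Emg1 in none. Nob1, the nuclease of the last cut of the small subunit RNA, and Ddx10, a helicase, stood at 0.61 ± 0.18 and 0.39 ± 0.13 and did not pass.

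Of the 10 large subunit genes measured, 6 rose in the averaged response and Nip7 fell. Ebna1bp2, an early large subunit factor, read 7.40 and 7.43 then 8.57 and 8.13 in wild type and 7.41 and 7.40 then 8.10 and 8.48 in the null-labelled arrays. Its 0 h arrays lay between 7.40 and 7.43, and it rose by 0.94 ± 0.20 (adjusted p = 0.0415) and 0.89 ± 0.20 (adjusted p = 0.0375). Nop2, a methyltransferase of the large subunit RNA, read 6.52 and 6.79 then 8.18 and 7.53 in wild type and 7.34 and 6.98 then 7.59 and 7.84 in the null-labelled arrays. Nop2 rose by 1.20 ± 0.26 in wild type (adjusted p = 0.0441), stood at 0.55 ± 0.26 in the null-labelled arrays and rose by 0.88 ± 0.18 averaged (adjusted p = 0.0193). Rrs1, which brings a small RNA and its proteins into the large subunit, read 7.74 and 7.85 then 8.54 and 8.58 in wild type and 8.46 and 8.07 then 8.69 and 8.81 in the null-labelled arrays, an averaged rise of 0.62 ± 0.11 (adjusted p = 0.0129). The null-labelled arrays of Rrs1 and Nop2 were above the wild type arrays at 0 h, and at 24 h those of Rrs1 were above and those of Nop2 overlapped.

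Pes1, Bop1 and Wdr12 form a complex needed for processing of the large subunit RNA. Wdr12 read 6.89 and 7.27 then 7.96 and 7.54, and 7.33 and 7.18 then 7.75 and 8.13 (averaged 0.68 ± 0.16, adjusted p = 0.0270). Bop1 read 7.19 and 7.17 then 7.66 and 7.58, and 6.88 and 6.89 then 7.26 and 7.52 (0.47 ± 0.09, adjusted p = 0.0161). Both calls held in 3 of the 8 fits without an array, and Bop1 was lower in the null-labelled than in the wild type arrays at both times with no overlap. Pes1 itself stood at 0.36 ± 0.14 and did not pass. Rrp1b, a nucleolar processing factor, read 5.91 and 6.17 then 6.84 and 6.35, and 6.03 and 6.03 then 6.42 and 6.85 (0.58 ± 0.16, adjusted p = 0.0434), a call that held in 2 of the 8 fits. The helicase Ddx18 (0.45 ± 0.14) and Nop16 (0.27 ± 0.10) did not pass. Nip7, a small processing factor, read 9.58 and 9.74 then 9.31 and 9.36 in wild type and 9.78 and 9.77 then 9.06 and 9.41 in the null-labelled arrays. It was the member that fell, by 0.44 ± 0.11 on the log2 scale averaged (adjusted p = 0.0310), with no overlap in either genotype. The call of Nip7 held in 1 of the 8 fits, and a second, dimmer probe set of the gene stood at 0.39 ± 0.37.

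**Figure D3:**
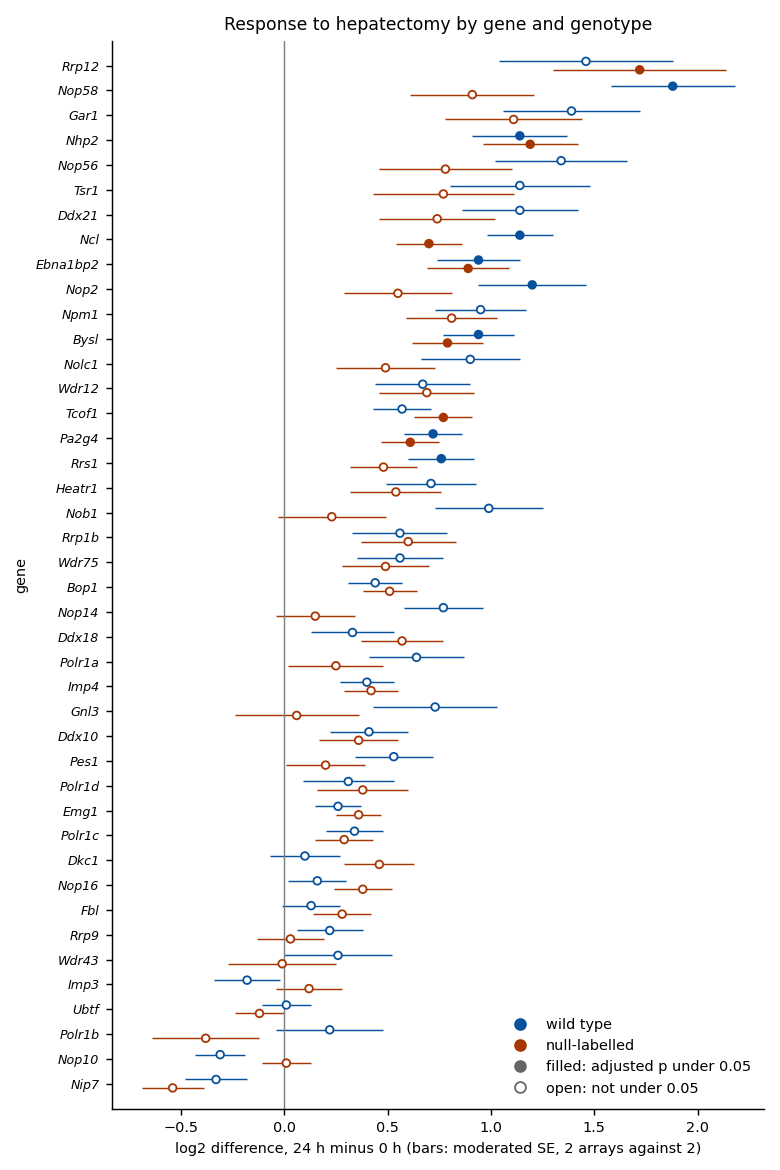
Log2 difference between 24 h and 0 h (horizontal axis) for each of the 42 genes, ordered by the mean of both genotypes; blue is wild type, brown null-labelled, bars are the moderated SE and filled points passed at an adjusted p under 0.05. Most points lie right of 0, between -0.33 and 1.88 in wild type and between -0.54 and 1.72 in the null-labelled arrays, and the bars of the genotypes overlap for most genes.

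No ribosome biogenesis gene passed between the genotypes, at 0 h, at 24 h or in the difference between the responses (limma), against 0%, 0.00693% and 0% of all genes tested. At an unadjusted p under 0.05 there were 3 at 0 h (7.14%, against 9.64% of all genes), 2 at 24 h (4.76%, against 11.8%) and 0 in the difference (against 8.62%). At 0 h the smallest p values were those of Nop14 (0.61 ± 0.19, adjusted p = 0.444) and Nop58 (0.95 ± 0.30, adjusted p = 0.454), and Rrs1 was the third (0.46 ± 0.16), all higher in the null-labelled arrays. There the null-labelled arrays lay wholly above the wild type arrays in 23 members, 54.8%, where 24.2% of all genes did so. They lay wholly below in 2, where 23.9% of all genes did. Of the 0 h wild type pools, pool 2 was the higher in 31 of 42 members. Without pool 1, or without 0 h null-labelled pool 1, no member had an unadjusted p under 0.05, and in the other fits without an array 4 or 5 had. Markers of some other liver cells, and the RNA quality ratios given below, also differed between the genotypes at 0 h, and their part in this was not tested. None of the markers passed. Endothelial markers summed to 1720 in each wild type array and to 1173 to 1427 in the null-labelled arrays. Of these, 8 of 10 were wholly lower there, where 23.9% of all genes were. Cholangiocyte markers summed to 905 to 951 against 648 to 706, with 3 of 5 wholly lower, and the red cell markers to 1227 to 1255 against 764 to 937. These last sums rest mostly on 1 gene each. Cdh1 had a mean level of 9.47, against 3.49 to 6.17 for the other cholangiocyte markers, and Alas2 9.42, against 3.62 for Slc4a1. The sums overlapped for hepatocyte (77845 to 83600 against 79360 to 80297), Kupffer cell and leucocyte (2117 to 2331 against 2139 to 2160) and stellate cell markers (2212 to 2455 against 1896 to 2430). Among the stellate cell markers Dcn had a mean level of 10.22, against 3.91 to 7.94 for the others, so it weighs heavily in that sum.

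At 24 h the 2 members with the smallest p values were both box H/ACA proteins, Nop10 (0.43 ± 0.12, adjusted p = 0.286) and Dkc1 (0.57 ± 0.17, adjusted p = 0.308), each higher in the null-labelled arrays with no overlap. The null-labelled arrays lay wholly above the wild type arrays in 9 members at 24 h (21.4%, against 21.0% of all genes) and wholly below in 2 (against 19.7%). The median over the members was -0.02 at 24 h and 0.13 at 0 h. With median centring in place of quantile normalisation the median over all genes at 24 h moved to 0.14 and that over the members to 0.17, so the direction at 24 h follows the scaling. With the deposited values and no further normalisation it was -0.019 over all genes and 0.014 over the members. The median also turned to 0.19 without 24 h wild type pool 1 and to 0.15 without 24 h null-labelled pool 1, and was -0.23 without 24 h wild type pool 2 and -0.12 without 24 h null-labelled pool 2. For the difference between the responses (null-labelled minus wild type) the smallest p values were those of Nop14 (-0.62 ± 0.26, adjusted p = 0.586) and Nop58 (-0.97 ± 0.42, adjusted p = 0.586). The response was the smaller in the null-labelled arrays for 27 of the 42 members (64.3%, against 50.0% of all genes) and the larger for 15 (35.7%, against 49.9%), and the median difference was -0.13. Without 24 h wild type pool 1 the median turned to 0.04 and 24 members had the larger response in the null-labelled arrays, and without 24 h null-labelled pool 1 it turned to 0.03. Without the other pool of each it lay further from 0, -0.26 without 24 h wild type pool 2, with 8 members above 0 and 7 at an unadjusted p under 0.05, and -0.26 without 24 h null-labelled pool 2, with 9 above 0. Median centring also turned it to 0.03, with the median over all genes at 0.12. The 95% interval of the difference held 0 for all 42 members. These intervals were wide, from -1.99 to 0.05 for Nop58 and from -1.19 to 1.72 for Rrp12.

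Several members have further probe sets, which offer a second reading of the same RNA pools. Of 51 other probe sets, 45 passed the filter, for 29 members. In the averaged response 36 of the 45 had the sign of the brightest probe set, 15 rose and 1 fell, in a fit over all probe sets. The share of all probe sets that rose or fell in that fit was not counted, so 15 and 1 have no background beside them. Second readings lay on both sides of the brightest. Among those above it were Nop56 (1.30), Nhp2 (1.35), Rrs1 (0.74) and Wdr43 (0.53 against 0.12). Among those below it were Bysl (0.40 against 0.87), Ddx21 (0.79 against 0.94), Ddx10 (0.25 against 0.39) and Nop16 (0.15 against 0.27). The 4 other probe sets of Ncl gave 1.26, 0.82, 0.37 and -0.22. The second probe sets of Fbl (0.29 ± 0.09, adjusted p = 0.0628), Nop10 (-0.07 ± 0.10) and Ubtf (-0.01 ± 0.10) did not pass either, and the other Dkc1 probe sets gave 0.55 and 0.65, of which the second passed (adjusted p = 0.0467). A second Polr1c probe set, at 0.52 ± 0.10, also passed (adjusted p = 0.0172), where the brightest did not. The further Tcof1 probe sets, at 0.21 and 0.39, did not pass. In the fit over all probe sets Wdr75, Nop14, Emg1 and Rrp1b themselves no longer passed in the averaged response. There Nhp2, Pa2g4, Nop2, Ebna1bp2 and Rrs1 lost the call in wild type (adjusted p between 0.0509 and 0.0597), and Ncl, Pa2g4 and Rrp12 lost it in the null-labelled response (0.0538 to 0.0582). Bysl was then the member of those 5 called in both responses that kept both calls. Among 29 other probe sets that were at most 2 log2 units dimmer than the brightest, 1 had the opposite sign, a Polr1d probe set at -0.05. The other 8 of opposite sign were dimmer than that and belonged to Pa2g4 (3 probe sets), Ncl, Heatr1, Imp4, Nip7 and Ddx18. The Heatr1 probe set was the one that fell, by 0.56 ± 0.15 (adjusted p = 0.0458). Which parts of these transcripts the probe sets cover was not analysed here.

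**Figure D4:**
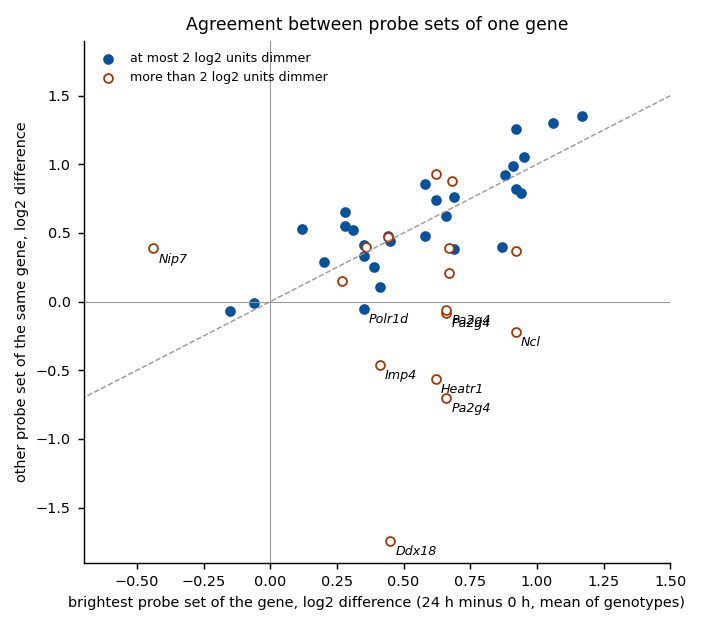
Log2 difference between 24 h and 0 h, mean of the genotypes, of each further probe set (vertical axis) against the brightest probe set of the same gene (horizontal axis), with the line of equality dashed; filled points are at most 2 log2 units dimmer than the brightest. Of the 45 points 36 have the same sign on both axes, and the 9 named points do not.

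Of 113 other ribosome biogenesis genes tested, 42 rose, 3 fell and 68 did not pass in the averaged response, with a median of 0.29, where 13.8% of all genes rose and 15.1% fell. Among 45 small subunit genes 15 rose and 1 fell (median 0.28), led by Pno1 (0.79 ± 0.09, adjusted p = 0.00366) and Utp6 (0.89 ± 0.10). Of 44 large subunit genes 13 rose and none fell (median 0.22). Eif6, which keeps the new large subunit from joining too early, read 8.60 and 8.65 then 10.79 and 10.11 in wild type and 8.45 and 8.36 then 9.88 and 10.33 in the null-labelled arrays, a rise of 1.76 ± 0.18 (adjusted p = 0.00339), and Ftsj3, a methyltransferase, rose by 1.05 ± 0.11. The RNA exosome, which trims precursor RNA, had 11 of 13 genes rise and Exosc5 fall (-0.65 ± 0.08, adjusted p = 0.00491), with Exosc8 at 0.69 ± 0.10. Of 11 other genes of ribosomal RNA transcription 3 rose and 1 fell (median 0.16). Polr1e, a further RNA polymerase I subunit, read 5.28 and 5.14 then 6.63 and 6.31 in wild type and 4.76 and 5.15 then 6.35 and 6.90 in the null-labelled arrays, a rise of 1.47 ± 0.17 (adjusted p = 0.00415), and Baz2a, of the silencing complex of these genes, fell by 0.63 ± 0.11.

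Myc, a transcription factor that drives ribosome biogenesis genes in many tissues, did not pass. Myc read 6.42 and 6.21 then 7.26 and 6.18 in wild type and 6.34 and 6.58 then 6.52 and 6.81 in the null-labelled arrays, 0.31 ± 0.25 averaged (adjusted p = 0.390). Its highest value came from 24 h wild type pool 1, and the 24 h arrays overlapped the 0 h arrays in both genotypes. In the list of Myc, its relatives, partners and antagonists 2 of 11 rose (18.2%, against 13.8% of all genes) and 2 fell (against 15.1%) in the averaged response, close to the share of all genes. Max, the partner of Myc, rose by 1.11 ± 0.27 (adjusted p = 0.0294) and Mlx by 0.89 ± 0.13. The antagonists Mxd4 and Mxi1 fell by 0.90 ± 0.12 and 0.56 ± 0.09. At 0 h Max read 2.99 and 4.18 in wild type and 3.81 and 3.81 in the null-labelled arrays. The value of 2.99 lay under the filter limit, where a fold is imprecise. Max did not pass in wild type alone (1.55 ± 0.38, adjusted p = 0.0593) or in the null-labelled response (0.67 ± 0.38, adjusted p = 0.272).

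Other measures moved with the time after surgery, and some with the genotype, and their part in the results was not tested. The ratio of 3' to 5' control probe sets for actin, a sign of RNA quality, ranged from 1.04 to 1.40 (log2) in wild type at 0 h, from 0.91 to 1.03 at 24 h, from 1.54 to 1.59 in the null-labelled arrays at 0 h and from 1.22 to 1.32 at 24 h. The actin ratio was thus higher in the null-labelled than in the wild type arrays at both times with no overlap. The same ratio for Gapdh ranged from 0.18 to 0.28 in wild type and from 0.51 to 0.54 in the null-labelled arrays at 0 h. At 24 h it ranged from 0 to 0.14 and from 0.07 to 0.24. Of 17 DNA synthesis and mitosis genes, 10 rose (58.8%, against 13.8% of all genes) and 1 fell (against 15.1%) in the averaged response. Their summed linear signal ranged from 1121 to 1224 at 0 h and from 1626 to 2469 at 24 h in wild type, and from 1056 to 1093 and from 2973 to 4904 in the null-labelled arrays. Pcna had the highest mean level of that list, 9.14, against 3.51 to 7.66 for its other genes, so it weighs heavily in the sum. Between the genotypes at 24 h none of these 17 passed, and 15 were above 0 (88.2%, against 50.8% of all genes), with a median of 0.73. Of the ribosome biogenesis genes 19 of 42 were above 0 (45.2%), with a median of -0.02 whose sign changed with the scaling and without single pools. Hepatocyte markers summed to between 77298 and 83600 over all arrays, with 1 of 12 higher and 3 lower in the averaged response. For this list and those that follow, the shares of all genes were 13.8% higher and 15.1% lower. Kupffer cell and leucocyte markers summed to between 2117 and 2331 at 0 h and between 2339 and 2686 at 24 h, with 4 of 13 higher and 3 lower. For endothelial markers the range was 1173 to 1720 at 0 h and 1291 to 1650 at 24 h (1 of 10 higher), and for stellate cell and fibroblast markers 1896 to 2455 and 1904 to 2159 (0 higher and 3 of 10 lower). Cholangiocyte markers ranged from 648 to 951 and from 814 to 1116 (1 of 5 higher). The 2 red cell markers measured, of which 1 was lower, ranged from 764 to 1255 and from 353 to 598.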

How the data were processed

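The deposited values are log2 signals per probe set; how the authors computed them is not stated in what was used here, and the log2 scale was read from the values, which appear scaled between arrays. Of 45101 probe sets, 64 controls were left out. Values were quantile normalised between the 8 arrays. A gene was represented by its probe set of a single symbol with the highest deposited mean, and kept if above the 40th percentile of its array on at least 2 arrays, which left 14423 genes. limma 3.58.1 (R 4.3.3) then estimated 1 mean per group from the 8 arrays together (4 residual and 2.02 prior degrees of freedom). SE values are moderated, adjusted p values are two-sided Benjamini-Hochberg values over all genes tested, and a gene passed under 0.05. The procedure was tested on simulated data. The members, role groups and lists were chosen with earlier results of these data known. Every member is named; values on every array are given for members that passed, the 2 per role with the smallest averaged p, and the 2 with the smallest p in each genotype comparison; pathway genes named are among the 4 per list with the smallest averaged p, and always Myc. Alternatives are in the closing section.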

Additional observations from a re-analysis of the deposited data

How the results depend on the processing

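The number of ribosome biogenesis genes that passed in the responses to hepatectomy depended on the settings, as did the share of all genes, while the median over the members stayed above 0 there. Between the genotypes at 24 h and in the difference between the responses the median changed sign with median centring and without single pools. At 24 h it also turned, to 0.014, with the deposited values and no further normalisation. In wild type (8 called, 9.28% of all genes) the count in either direction was 4 with median centring (5.58%), 2 with no filter on low values (2.98%), 18 with a filter at the 60th percentile (21.8%), 18 with 16 added on the linear scale (15.1%), 21 with a trended and robust prior (18%), 13 with array weights (11.8%) and 0 (0.0139%) in a fit of just the 4 arrays concerned. In the null-labelled response (7 called, 14.7% of all genes) the count was 0 with no filter (5.64%), 13 with the stricter filter (28.7%), 2 with the mean over the probe sets of a gene (10.7%), 12 with 16 added (20.3%), 16 with the trended prior (22.2%) and 0 (0%) in the fit of 4 arrays. With a replicate block the count was 0 for each single response (2.3% and 6.25% of all genes) and 17 for the averaged response (22.8%). The replicate numbers name different pools, and between groups the difference of array 1 and array 2 correlated at -0.20 to 0.05 over genes. Arrays of equal number thus showed no clear positive pairing, and the main fit had no block. The value of -0.20 was that between the 24 h groups, and a factor that crosses the numbers was not tested. Leaving out each array in turn gave 0 to 8 for wild type, 0 to 9 for the null-labelled response and 10 to 25 averaged over the genotypes, where the other settings stayed within 1.5 times of 25. Over all settings the median over the members lay between 0.40 and 0.79 for wild type, 0.36 and 0.75 for the null-labelled response and 0.41 and 0.69 averaged. No member passed between genotypes or in the difference between the responses under any setting run. Few genes of any kind passed there. The highest shares of all genes came with the trended and robust prior, 0.0901% at 0 h, 0.763% at 24 h and 0.0693% in the difference. Pa2g4 turned to -0.048 in the null-labelled response with the mean over its probe sets, 3 of which stood below 0 in the averaged response. In a fit that leaves out an array, the lone array of that group is assumed to vary like the others. The fit of each further probe set was added after the data were seen.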
